A study of Mus musculus with 16 samples.

Results

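The levels of 10 genes of the hypoxia-inducible factor (HIF) pathway were followed in primary hepatocytes of wild-type mice by bulk RNA sequencing, out of 55450 genes quantified. They are *Hif1a*, *Egln1*, *Egln3*, *Ankrd37*, *Bnip3*, *Vegfa*, *Ndrg1*, *Adm*, *Kdm3a* and *P4ha1*. The genes were chosen by symbol as parts or known targets of the pathway, at a time when the expression values of these same libraries had already been examined, and *Ankrd37* was singled out among them. Which contrast drew attention to it is not recorded, so every value of *Ankrd37* is given as a description without a test, and the p-values of the other 9 genes are descriptive too. All 10 genes passed the filter on low values, a mean over the 16 libraries of 1 CPM or more (CPM are counts scaled to a common library size), as did 11675 genes in all.

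The hepatocytes were purified from perfused liver by low-speed centrifugation and kept overnight in medium with serum, insulin, transferrin and selenium, which all groups shared. They received no addition (untreated), 10 mM itaconate, a chemically defined lipid mixture of fatty acids and cholesterol diluted 10-fold (lipid), or the mixture together with itaconate (lipid + itaconate). Each of the 4 groups had 4 libraries, named by the replicate letters A to D, with 1 library of every treatment to a letter. The labels do not say whether the letters are separate animals, so the p-values below measure the spread between these libraries, which may in part be technical. The labels give neither age nor sex, and by the methods of the study its mice were young adult males.

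The HIF pathway is the way in which cells sense oxygen. HIF alpha proteins such as HIF1α are hydroxylated by the prolyl hydroxylases encoded by the *Egln* genes, which use oxygen, iron and α-ketoglutarate, and the hydroxylated protein is bound by the von Hippel-Lindau protein and degraded. When hydroxylation slows, the alpha subunit pairs with ARNT, binds a short motif in DNA and switches on genes of glycolysis, vessel growth, mitophagy and matrix synthesis, and also *Egln1* and *Egln3* themselves. Because the alpha subunit is controlled mainly as a protein, its mRNA is no measure of its activity. Itaconate is a dicarboxylate made by activated macrophages and is known as an inhibitor of succinate dehydrogenase. The comparisons asked how these genes differed with itaconate, with lipid and with both.

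Total counts per library ran from 22346049 to 35512004. The 8 hepatocyte markers examined were all expressed, with *Alb* at a mean of 33508 CPM. Low markers of other liver cells included *Adgre1* of macrophages at 1.78 CPM, *Pecam1* of endothelium at 3.78 CPM and *Krt19* of cholangiocytes at 0.225 CPM. *Lrat* of stellate cells was at 0.0444 CPM, with 8 libraries at 0. Not all such markers were low. *Cd68*, a lysosomal gene not confined to macrophages, was at 218 CPM. *Spp1* and *Sox9* of the cholangiocyte markers were at 530 and 112 CPM. *Alas2* of the erythroid markers was at 30.9 CPM and *Reln* of the stellate markers at 20.2 CPM. Residual variation after treatment and letter were accounted for was largest in lipid + itaconate replicate C (SD of log2 CPM over genes 0.186), lipid + itaconate replicate B (0.182) and lipid replicate C (0.179), against 0.143 to 0.168 in the other libraries. Values without these libraries are given beside the results they touch.

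DNA of the genes was examined for the core of the HIF-binding motif. In RefSeq promoter windows of the GRCm38.p6 build, which run from 250 bases before to 50 bases after a transcription start, ACGTG or GCGTG was searched on both strands. Windows were found for 9 of the 10 genes and not for *Ndrg1*, and each of the 9 had a match in at least 1 window. Among all 32851 windows, 43.8% held a match, and among all 27025 genes with a window, 46.7% did, so a match by itself is common. *Bnip3* had 5 matches, *Ankrd37* 4, *Hif1a* and *P4ha1* 3 each, *Adm*, *Egln1* and *Vegfa* 2 each, and *Egln3* and *Kdm3a* 1 each. Both matches of *Vegfa* lay in a window inside the gene (chr17:46025114-46025413). Its window at the 5′ end of the gene (chr17:46032328-46032627) held 0. The match of *Kdm3a* lay in the window chr6:71632868-71633167, and its other windows held 0. Matches on the 2 strands can overlap, as in *Bnip3*, where ACGTG on one strand starts 1 base after its match on the other. The matches below, with flanking bases, are shown for *Ankrd37* and for the 4 other members whose levels across the libraries were most like those of *Ankrd37*. All ACGTG sites of these genes are shown, the overlapping pair of *Bnip3* once, and for *Kdm3a*, which had none, its GCGTG match, while the GCGTG matches of the other genes are left out. They are written 5′ to 3′ on the strand of the gene, with the matched bases in capitals, where CACGT is ACGTG read on the other strand.
Ankrd37, first matched base at −241, chr8:46000075-46000100, minus strand: cccagcagtACGTGcctagctcggct
Ankrd37, first matched base at −6, chr8:45999851-45999868, minus strand: cagtgtttgggtACGTGa
P4ha1, first matched base at −16, chr10:59323268-59323295, plus strand: tgtgacagagcgCACGTagcgagggctg
Egln3, first matched base at −229, chr12:54204087-54204115, minus strand: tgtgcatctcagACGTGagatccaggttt
Bnip3, first matched base at −107, chr7:138909597-138909625, minus strand: cgcacgcgccgcACGTGccacacgctccc
Kdm3a, first matched base at −27, chr6:71632928-71632956, minus strand: ccgggaggctgtGCGTGtcttgtgagaga
The matches of *Ankrd37* at −6 and of *P4ha1* at −16 lie directly before the RefSeq transcription start of their window, and that of *Egln3* lies near the far end of its window. The windows of *Ankrd37* (chr8:45999801-46000100) and *Hif1a* (chr12:73907617-73907916) lie inside the gene spans given below. Their starts are thus not the outer 5′ ends of those spans. These matches describe the letters in the window and no binding was measured.

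Scaled per kilobase of exon, so that genes can be set side by side, the mean level over the 16 libraries was highest for *Bnip3* (217 CPM per kilobase), followed by *Egln3* (118), *Vegfa* (73.4), *Ndrg1* (54.6), *Egln1* (49.5), *Adm* (35.3), *Hif1a* (23.5), *Kdm3a* (16.7), *P4ha1* (14.4) and *Ankrd37* (12.8). The ranges over the 16 libraries of every neighbouring pair in this order overlapped, so that neighbours were not separated by level. *Ankrd37* was the lowest and rested on 281 to 828 counts per library, while *Bnip3* rested on 8271 to 18749. All further levels are in CPM for the whole gene and are compared only between libraries.

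Itaconate without lipid went with higher levels of *Ankrd37* in every library, and with a smaller rise of *Kdm3a*. *Ankrd37* encodes an ankyrin repeat protein and is known as a direct target of HIF (ENSMUSG00000050914.16, GRCm38 chr8:45996902-46005707, minus strand). Its level was 16.7, 15.3, 18.8 and 16.0 CPM in untreated hepatocytes of letters A, B, C and D, and 28.4, 24.8, 26.2 and 23.9 CPM in itaconate-treated hepatocytes. The lowest itaconate-treated library lay above the highest untreated library. The means were 16.7 ± 1.5 and 25.8 ± 1.95 CPM (SD, n = 4), and the fitted difference was 0.63 on the log2 scale (standard error, SE, 0.155, 95% interval 0.30 to 0.96), a 1.55-fold higher level. The interval does not allow for the choice of this gene from these same libraries. *Ankrd37* was the only one of the 10 genes whose groups did not overlap, a separation upwards that 3.67% of all genes tested showed. That share does not allow for the choice either. For itaconate without lipid, 0 of the 8 hepatocyte markers passed the test and of the 7 macrophage markers 1 rose and 1 fell. The macrophage markers summed to 180 to 286 CPM in untreated and 158 to 243 CPM in itaconate-treated libraries. Most of this sum was *Cd68* (mean 218 CPM), which is not confined to macrophages, and the next highest was *Cd5l* (11.0 CPM). The part of these markers in the difference of *Ankrd37* was not tested. In bulk RNA, a change in the number of cells and a change in RNA per cell cannot be told apart.

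*Kdm3a* encodes a histone demethylase of the same oxygen- and α-ketoglutarate-dependent enzyme class as the *Egln* enzymes (ENSMUSG00000053470.13, chr6:71588972-71632990, minus strand). It was at 126, 133, 152 and 159 CPM in untreated and at 154, 153, 204 and 180 CPM in itaconate-treated hepatocytes of letters A to D. It was higher with itaconate within each letter, although the 2 groups overlapped. Means were 142 ± 15.4 and 173 ± 24.1 CPM (SD, n = 4), a difference that the model put at 0.28 on the log2 scale (SE 0.071, edgeR adjusted p = 0.0362 over all genes). The call was lost in a model without the replicate letter (adjusted p = 0.398). It was also lost without any 1 of the untreated replicates A, B, C and D or of the itaconate replicates A, C and D, and without any whole letter, with adjusted p-values of 0.0625 to 0.153 and log2 fold changes of 0.23 to 0.31.

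Of the 9 genes other than *Ankrd37*, *Kdm3a* was the 1 with an adjusted p under 0.05 for itaconate without lipid, against 4.91% of all genes tested, 1.96% upwards. *P4ha1*, the catalytic subunit of collagen prolyl hydroxylase (ENSMUSG00000019916.14, chr10:59323296-59373304, plus strand), was at 51.6, 51.0, 62.6 and 60.1 CPM in untreated and at 63.2, 61.4, 75.1 and 69.8 CPM in itaconate-treated hepatocytes of letters A to D. It was higher in every letter, with differences of 0.22 to 0.29 on the log2 scale. Its fitted log2 fold change of 0.26 (SE 0.082) had an adjusted p of 0.0820 in the edgeR test and did not pass. The adjusted p was under the threshold with DESeq2 (0.0375), in a model of the untreated and itaconate-treated libraries alone (0.000494), without the filter on low values (0.000324), without lipid replicate C (0.0498), without lipid + itaconate replicate C (0.00882) and without letter C (0.0356).

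Neither of the oxygen-sensing hydroxylase genes passed the edgeR test of all 16 libraries for itaconate. *Egln3*, the hydroxylase gene that is induced most strongly by HIF in many cells (ENSMUSG00000035105.5, chr12:54178981-54203860, minus strand), was at 316, 281, 346 and 289 CPM in untreated and at 362, 359, 402 and 337 CPM in itaconate-treated hepatocytes. It was higher in all 4 letters, but its log2 fold change of 0.25 had a 95% interval of −0.05 to 0.55 (edgeR adjusted p = 0.332). It passed at nearly the same fold in a model of the untreated and itaconate-treated libraries alone (0.000281) and without the filter on low values (0.000105). *Egln1*, the main hydroxylase acting on HIF alpha (ENSMUSG00000031987.6, chr8:124908587-124949324, minus strand), had a log2 fold change of 0.07 with an interval of −0.13 to 0.27. *Hif1a* itself (ENSMUSG00000021109.13, chr12:73901375-73947530, plus strand) was at 162 ± 14.6 CPM in untreated and 158 ± 13.3 CPM in itaconate-treated hepatocytes (SD, n = 4). The 95% interval of its log2 difference, −0.12 to 0.05, was the narrowest of the 10 genes.

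The remaining target genes also did not pass the edgeR test of all 16 libraries. *Bnip3*, a mitophagy receptor (ENSMUSG00000078566.8, chr7:138890836-138909519, minus strand), had a log2 fold change of 0.15 (95% interval −0.07 to 0.37). *Vegfa*, the vascular growth factor (ENSMUSG00000023951.17, chr17:46016993-46032369, minus strand), had one of 0.18 (−0.03 to 0.39), and *Ndrg1*, a stress-responsive gene of the N-myc downstream-regulated family (ENSMUSG00000005125.13, chr15:66929318-66969640, minus strand), one of 0.11 (−0.04 to 0.26). Each of these 3 genes was higher with itaconate in all 4 letters, and each passed in edgeR with the untreated and itaconate-treated libraries alone in the model (adjusted p = 0.00654 for *Bnip3*, 0.00787 for *Vegfa* and 0.0278 for *Ndrg1*). *Vegfa* also passed without the filter (0.0132). *Adm*, which encodes the vasodilator peptide adrenomedullin (ENSMUSG00000030790.15, chr7:110627661-110629820, plus strand), had a log2 fold change of 0.09 with the widest interval of the 10 genes, −0.37 to 0.56. In all, 7 of the 10 genes were higher in all 4 letters, which 18.3% of all genes tested were, and the median log2 fold change of the 10 was 0.16, against −0.0019 over all genes tested. Over the 9 genes other than *Ankrd37* the median was 0.15. These values describe genes chosen with earlier results known.

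**Figure D1:**
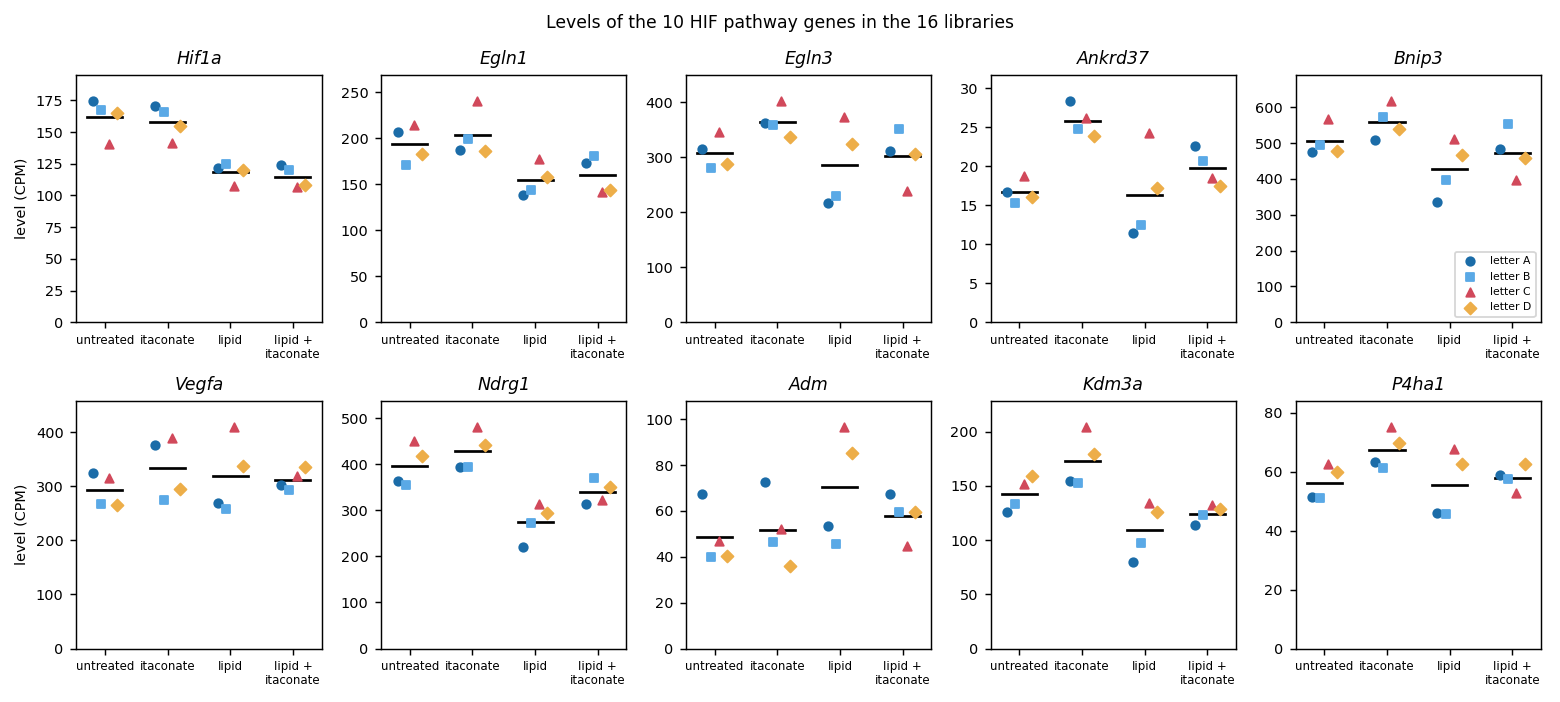
Level of each of the 10 HIF pathway genes, in CPM from 0 on the vertical axis of each panel, in the 4 treatment groups on the horizontal axis, with 1 point per library coloured and shaped by replicate letter and a bar at the group mean. Itaconate-treated *Ankrd37* lay at 23.9 to 28.4 CPM against 15.3 to 18.8 CPM in untreated hepatocytes, and the lipid libraries A and B lay below lipid libraries C and D for most of the genes.

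In lipid-treated hepatocytes the itaconate difference had no common direction across the letters for most of these genes. *Ankrd37* was at 11.4, 12.5, 24.2 and 17.2 CPM in lipid-treated and at 22.6, 20.7, 18.5 and 17.5 CPM in lipid + itaconate-treated hepatocytes of letters A to D. The log2 difference was 0.99 in letter A and 0.73 in letter B, but 0.02 in letter D and −0.39 in letter C. The spread lay mainly on the side without itaconate, where the SD was 5.84 CPM over lipid-treated libraries against 2.32 CPM over lipid + itaconate-treated libraries (n = 4 each). The fitted log2 difference was 0.30 (SE 0.158), with a 95% interval of −0.03 to 0.64. It was 0.52 without lipid replicate C, 0.43 without lipid + itaconate replicate C, 0.22 without lipid + itaconate replicate B and 0.09 without letter A.

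Another 6 of the 10 genes, *Egln1*, *Egln3*, *Bnip3*, *Vegfa*, *Adm* and *P4ha1*, were higher with itaconate in letters A and B and lower in both letters C and D, whereas *Ankrd37* was lower in letter C alone. Of all genes tested 12.3% showed this pattern, which was chosen for description after the values were seen. *Egln3* was at 217, 230, 373 and 324 CPM in lipid-treated and at 312, 352, 238 and 307 CPM in lipid + itaconate-treated hepatocytes of letters A to D. *Adm* was at 53.6, 45.7, 96.4 and 85.3 CPM in lipid-treated and at 67.4, 59.4, 44.5 and 59.6 CPM in lipid + itaconate-treated hepatocytes. In both genes the lipid libraries C and D were the highest of their group, and lipid + itaconate replicate C was the lowest of its group. The median of the 10 genes' log2 differences was 0.43 in letter A, 0.36 in letter B, −0.36 in letter C and −0.02 in letter D, while the median over all genes tested lay within 0.003 of 0 in every letter. Without lipid the corresponding medians of the 10 genes were 0.16, 0.21, 0.19 and 0.16. The part of the residual variation of the lipid-treated libraries in this split was not tested.

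**Figure D2:**
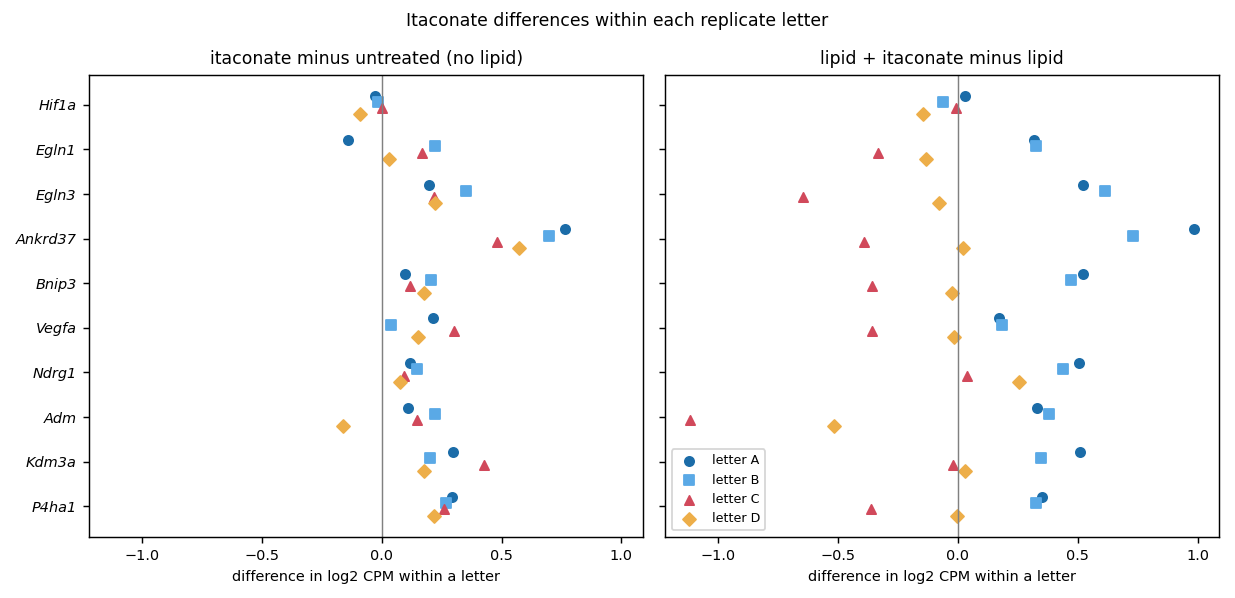
Difference in log2 CPM between libraries with and without itaconate of the same replicate letter, on the horizontal axis, for each of the 10 genes, without lipid on the left and with lipid on the right, with 1 point per letter. Without lipid *Ankrd37* was higher in all 4 letters, while with lipid letters A and B lay to the right of letters C and D for every gene but *Hif1a*.

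*Ndrg1* was the 1 of the 9 genes other than *Ankrd37* that passed the test for itaconate with lipid, against 2.58% of all genes tested, 1.32% upwards. It was at 221, 273, 314 and 295 CPM in lipid-treated and at 313, 370, 322 and 352 CPM in lipid + itaconate-treated hepatocytes of letters A to D. It was higher with itaconate in all 4 letters, the only one of the 10 genes that was, as were 10.5% of all genes tested. The groups overlapped by the values of lipid replicate C and lipid + itaconate replicate A. It rose by 0.31 on the log2 scale (SE 0.072, edgeR adjusted p = 0.0329). The adjusted p was 0.345 in a model without the replicate letter and 0.244 in a model of the 8 lipid-treated libraries alone. That p ran from 0.0596 to 0.237, with log2 fold changes of 0.23 to 0.33, when lipid replicate A, B or D, lipid + itaconate replicate A, B or D, or letter A, B or D was left out.

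*Kdm3a* was at 79.8, 97.0, 134 and 126 CPM in lipid-treated and at 113, 123, 132 and 128 CPM in lipid + itaconate-treated hepatocytes. It was higher in letters A, B and D and lower in C, with a log2 fold change of 0.21 (95% interval 0.06 to 0.36) and an adjusted p of 0.139 in the edgeR test. The adjusted p was 0.0467 without lipid + itaconate replicate C, 0.0344 without letter C and 0.00533 without the filter on low values. *Bnip3* had a log2 fold change of 0.16 (95% interval −0.06 to 0.38) and passed only without lipid + itaconate replicate C (adjusted p = 0.0274) or letter C (0.0372). With either of these left out, 3 of the 9 genes passed instead of 1. *Adm* had a log2 fold change of −0.28 (95% interval −0.74 to 0.18) and passed downwards in edgeR without the filter on low values (adjusted p = 0.000237). *Hif1a* again had a narrow interval, −0.13 to 0.04 on the log2 scale.

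The difference between the itaconate effects with and without lipid was tested as an interaction, since an effect that passes in 1 setting and not in the other is not thereby different. None of the 9 genes passed (0 of 9 in edgeR's quasi-likelihood test, 0 at an unadjusted p under 0.05 and 0 with DESeq2), and 0.00857% of all genes tested did. *Ndrg1* had an interaction of 0.20 on the log2 scale (95% interval −0.01 to 0.42) and *P4ha1* one of −0.18 (−0.43 to 0.07). *Adm* had the estimate farthest from 0, −0.38 (−1.03 to 0.28, edgeR adjusted p = 0.787), and was the 1 gene that passed in edgeR without the filter on low values (adjusted p = 0.00147). For *Ankrd37* the estimate was −0.33 (−0.80 to 0.14), given as a description.

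**Figure D3:**
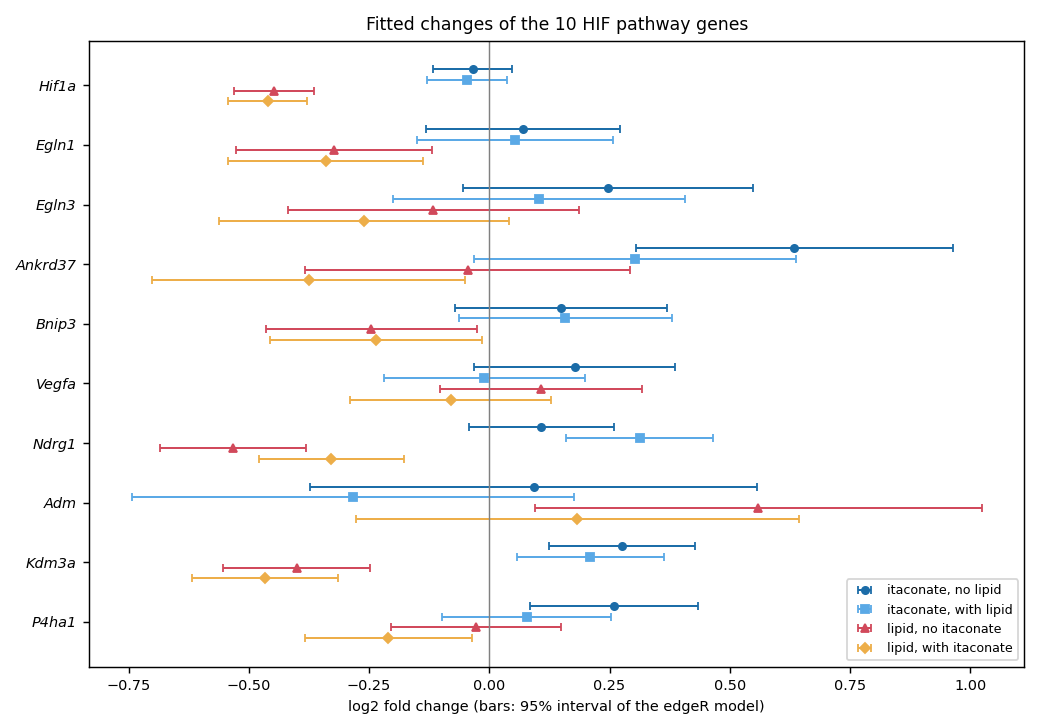
Fitted log2 fold change on the horizontal axis, with 95% intervals of the edgeR model as bars, of the 10 genes for itaconate without and with lipid and for lipid without and with itaconate. The intervals of both lipid comparisons lie below 0 for *Hif1a*, *Egln1*, *Bnip3*, *Ndrg1* and *Kdm3a*, and the interval of itaconate without lipid lies above 0 for *Kdm3a* and *P4ha1*. The values of *Ankrd37* are shown as a description.

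The lipid mixture went with lower levels of *Hif1a*, *Egln1*, *Ndrg1* and *Kdm3a*, with or without itaconate. The 2 lipid comparisons share no library with each other, but each shares a group with the itaconate comparisons above. *Hif1a* was at 174, 168, 141 and 165 CPM in untreated and at 122, 125, 107 and 120 CPM in lipid-treated hepatocytes of letters A to D. With itaconate present it was at 171, 166, 141 and 155 CPM without lipid and at 124, 120, 107 and 108 CPM with lipid. In both settings every library with lipid lay below every library without it. It fell by 0.45 on the log2 scale without itaconate (SE 0.039, edgeR adjusted p = 3.44e-07) and by 0.46 with it (SE 0.039, edgeR adjusted p = 4.63e-07). As a share of the level without lipid it fell by 26.7% and fell by 27.3%.

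*Ndrg1* fell from 397 ± 45.0 to 276 ± 40.2 CPM with lipid alone (SD, n = 4), a log2 change of −0.53 (SE 0.072, edgeR adjusted p = 2.47e-05). With itaconate present it fell from 428 ± 41.3 to 339 ± 26.3 CPM, a log2 change of −0.33 (SE 0.071, edgeR adjusted p = 0.00159). The groups with and without lipid did not overlap in either setting. *Kdm3a* fell by 0.40 (SE 0.072, edgeR adjusted p = 0.000322) and by 0.47 on the log2 scale (SE 0.071, edgeR adjusted p = 9.41e-05). With itaconate present its libraries with lipid all lay below those without, while without itaconate lipid replicate C reached into the range of untreated hepatocytes.

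*Egln1* was at 207, 171, 214 and 183 CPM in untreated and at 139, 144, 178 and 158 CPM in lipid-treated hepatocytes of letters A to D. It was lower in every letter and fell by 0.32 on the log2 scale (SE 0.096, edgeR adjusted p = 0.0115). In the presence of itaconate it went from 188, 199, 241 and 186 CPM to 173, 180, 141 and 144 CPM, a fall of 0.34 (SE 0.095, edgeR adjusted p = 0.00862). The first call was lost without letter A (adjusted p = 0.0898) and the second without letter C (0.0610) or letter D (0.0510). *Bnip3* had log2 fold changes of −0.24 in both settings and was lower in all 4 letters of each, with adjusted p-values of 0.0632 and 0.0735 in the edgeR test. For lipid alone it passed without lipid replicate C (0.0244) or D (0.0378), lipid + itaconate replicate B (0.0421) or C (0.00683), or letter C (0.0148), with only the untreated and lipid-treated libraries in the model (0.00879) and with no filter. With itaconate present it passed without lipid + itaconate replicate A (0.0318) or B (0.0174) and with no filter, and *Egln3* (log2 fold change −0.26, adjusted p = 0.143 in edgeR) passed without lipid + itaconate replicate B (0.0311) and with no filter.

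*Adm* was the 1 gene of the 9 that rose with lipid alone. It was at 67.4, 39.9, 47.0 and 40.2 CPM in untreated hepatocytes, against the lipid-treated values of 53.6, 45.7, 96.4 and 85.3 CPM, so that it was higher in letters B, C and D and lower in letter A. The log2 fold change was 0.56 (SE 0.219, edgeR adjusted p = 0.0459), and with itaconate present it was 0.18 (95% interval −0.28 to 0.64). The call rested on many libraries, since it was lost without untreated replicate B, C or D, itaconate replicate B or C, lipid replicate C or D, lipid + itaconate replicate A or D, or letter C or D, with adjusted p-values of 0.0522 to 0.251 and log2 fold changes of 0.34 to 0.56. It was also lost with DESeq2 (0.0834) and without the replicate letter (0.0960).

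*Ankrd37*, *P4ha1*, *Egln3* and *Vegfa* did not follow 1 direction with lipid alone. Each was lower in letters A and B and higher in letters C and D. For *Ankrd37* the fitted log2 difference was −0.05 (95% interval −0.38 to 0.29), and it ran from −0.27 to 0.12 over the alternative settings. With itaconate present, *Ankrd37* was lower with lipid in all 4 letters without overlap of the groups, at 17.5 to 22.6 against 23.9 to 28.4 CPM, with a log2 difference of −0.38 (−0.70 to −0.05). This difference was −0.26 without lipid + itaconate replicate C, and its interval is a description and no test. *P4ha1* fell by 0.21 in the same comparison (SE 0.082, edgeR adjusted p = 0.0460). Its call was lost without untreated replicate B, C or D, any itaconate replicate, lipid replicate D, lipid + itaconate replicate C or D, or letter C or D, with adjusted p-values of 0.0506 to 0.190, and in a model with treatment alone (0.153).

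Counted over the 9 genes other than *Ankrd37*, lipid alone gave 5 calls, 1 higher and 4 lower, against 47.5% of all genes tested, 23.8% upwards and 23.7% downwards. Lipid in the presence of itaconate also gave 5, all lower, against 47% of all genes tested in either direction and 23.5% downwards. Those 5 were *Hif1a*, *Egln1*, *Ndrg1*, *Kdm3a* and *P4ha1*, and 3 were left without letter C or without letter D. Over all 10 genes, 8 were lower in all 4 letters in that comparison, as were 27.4% of all genes tested, and 5 had groups that did not overlap, as did 14.8%. For lipid alone these counts were 5, against 29.4%, and 2, against 15.9%. Without regard to direction, the share of called genes among the 9 members (55.6% in both comparisons) was near that of all genes. Downwards, 4 of 9 and 5 of 9 were a larger share than the 23.7% and 23.5% of all genes. These shares describe genes chosen with earlier results known. The summed level of the 8 hepatocyte markers was 36779.9 to 51939 CPM in untreated and 32367 to 44347 CPM in lipid-treated hepatocytes. That of the 5 cholangiocyte markers was 600 to 1170 CPM in untreated and 336 to 609 CPM in lipid-treated libraries. The cholangiocyte sum was nearly all *Spp1* and *Sox9*, the only 2 of the 5 that were tested, and both fell. *Krt19*, *Krt7* and *Epcam* had means of 0.225, 0.0046 and 0.298 CPM. Of the 7 macrophage markers, 1 rose and 3 fell with lipid alone and 1 rose and 6 fell with lipid in the presence of itaconate. Their summed level was 180 to 286 CPM in untreated and 231 to 327 CPM in lipid-treated libraries. With itaconate present it was 158 to 243 CPM without lipid and 215 to 319 CPM with lipid. *Cd68*, at a mean of 218 CPM, made up most of these macrophage sums. The part of these differences in the lipid results was not tested.

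Other genes of the pathway were taken from 4 lists drawn up from general knowledge, of oxygen sensing and HIF subunits, of relatives and partners of the 10 genes, of glucose uptake and glycolysis, and of other HIF targets. Without the 10 genes they hold 99 genes, of which 79 were tested. With itaconate alone 10 of the 79 passed, or 12.7%, against 4.91% of all genes tested. Of these 10, 4 were higher and 6 lower, where 1.96% of all genes tested were called higher and 2.95% lower. The balance of directions turned in a model of the untreated and itaconate-treated libraries alone, with 21 higher and 10 lower, and without the filter on low values, with 9 higher and 7 lower. The median log2 fold change of the 79 was 0.05. The genes that rose were *Kdm4b* (0.28) and *Jmjd1c* (0.24), which belong to the same family of histone demethylases as *Kdm3a*, the transferrin receptor gene *Tfrc* (0.29) and the nuclear receptor gene *Rora* (0.29). Those that fell were the hexokinase gene *Hk2* (−0.77), the ectonucleotidase gene *Nt5e* (−0.74), the collagen-modifying enzyme genes *Loxl2* (−0.52) and *Plod1* (−0.20), *Ndufa4l2* (−0.42), which encodes a mitochondrial protein, and the cystine transporter gene *Slc7a11* (−0.26). The adjusted p-values of these 10 ran from 0.00232 (*Rora*) to 0.0325 (*Jmjd1c*) in the edgeR test. The called list genes lay on both sides of 0 in this model, with a balance that depended on the setting. Of the 14 tested genes of oxygen sensing, 0 passed with edgeR or with DESeq2 (5 at an unadjusted p under 0.05). The count of 10 was 6 without untreated replicate A or C, 4 without untreated replicate D, 6 without itaconate replicate A or D, 5 without itaconate replicate C, and 2, 6 and 0 without letters A, B and D. In a model without the replicate letter it was 0.

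Itaconate with lipid gave 4 calls among the 79 genes, or 5.06%, against 2.58% of all genes tested. *Cited2*, whose product competes with HIF alpha for its coactivators, was at 232 ± 20.3 CPM in lipid-treated and 293 ± 33.4 CPM in lipid + itaconate-treated hepatocytes (SD, n = 4), and *Narf* rose by 0.38 on the log2 scale. *Hk2* again had a log2 fold change of −0.77 and *Plod1* one of −0.18. *Hk2* and *Plod1* were thus lower with itaconate in both settings and in all 4 letters of each. The count of 4 was 2 without lipid replicate A or D or lipid + itaconate replicate D, 1 without lipid + itaconate replicate A, 17 without lipid + itaconate replicate C, and 0, 16 and 1 without letters A, C and D. For the interaction 0 of the 79 passed with edgeR or with DESeq2, and 6 did at an unadjusted p under 0.05.

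**Figure D4:**
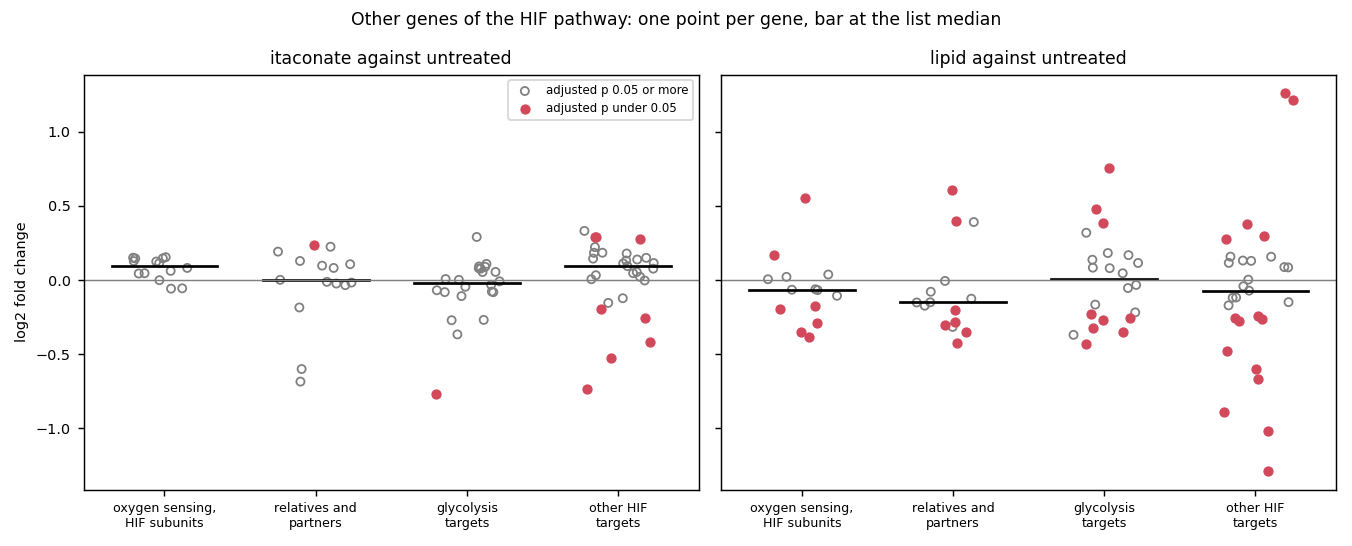
Log2 fold change of the 79 other genes of the HIF pathway, on the vertical axis, by list, for itaconate alone on the left and lipid alone on the right, with 1 point per gene in each list, filled where the adjusted p was under 0.05, and a bar at the list median. Filled points lie on both sides of 0 in either comparison, 4 above and 6 below for itaconate and 12 above and 25 below for lipid; *Egln2* stands in 2 lists.

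With lipid alone 37 of the 79 genes passed, 12 higher and 25 lower, or 46.8%, close to the 47.5% of all genes tested. In the list of oxygen sensing and HIF subunits 2 rose and 5 fell. *Cul2*, the scaffold of the ubiquitin ligase that marks HIF alpha, rose by 0.55 on the log2 scale, and *Epas1*, which encodes HIF2α, rose by 0.17. *Siah2* (−0.38), *Egln2* (−0.35), *Rbx1* (−0.29) and *Eloc* (−0.19) fell, of which *Rbx1* and *Eloc* encode further parts of the same ligase. Among relatives of the 10 genes, *Ndrg3* (0.61) and *Adm2* (0.40) rose, and *Vegfb* (−0.42), *P4hb* (−0.30) and *Bnip3l* (−0.29) fell. *Ndrg3* thus rose where *Ndrg1* fell.

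Of the 22 tested glycolysis genes, 3 rose and 6 fell with lipid alone. *Aldoc* (0.75), *Hk2* (0.48) and *Pfkp* (0.39) rose, and *Ldha* (−0.43), *Pgam1* (−0.35), *Pfkl* (−0.32) and *Pdk1* (−0.27) were among those that fell. In the list of other HIF targets 5 rose and 10 fell. *Adora2b* (1.26), which encodes an adenosine receptor, and *Nt5e* (1.21), whose product forms adenosine, rose most, followed by *Plod1* (0.38) and *Ddit4* (0.30), and *Cxcl12* (−1.29), *Angptl4* (−1.02), *Loxl2* (−0.89) and *Narf* (−0.67) fell most. *Hk2*, *Nt5e* and *Plod1*, which fell with itaconate alone, rose with lipid alone, and both comparisons share the untreated libraries.

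With itaconate present, lipid gave 46 calls among the 79 genes, 16 higher and 30 lower, or 58.2%, against 47% of all genes tested. In a model without the replicate letter there were 30. *Aldoc* (0.81), *Hk2* (0.48) and *Pfkp* (0.27) again rose and *Pfkfb3* (−0.64), *Ldha* (−0.31) and *Pgam1* (−0.27) fell. *Nt5e* (1.39) and *Adora2b* (0.98) rose, as did *Ndufa4l2* (0.45), and *Cxcl12* (−1.06), *Angptl4* (−0.85), *Loxl2* (−0.83) and *Tfrc* (−0.73) fell. Among relatives, *Flt1*, which encodes a receptor of VEGF proteins, rose by 0.82 and the ligand gene *Pgf* fell by 0.99. In the list of oxygen sensing, *Cul2* (0.42) and *Cited2* (0.19) rose and *Siah2* (−0.38), *Egln2* (−0.37), *Eloc* (−0.24) and *Crebbp* (−0.22) fell. The median log2 fold change of the 79 was −0.06, and that of all genes tested was 0.0041.

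The likeness of other genes to *Ankrd37* was described by the correlation of log2 CPM over the 16 libraries after the replicate letter had been removed by a linear model. The points share libraries and treatments, and no test was made. Of 11674 genes, *Rundc3b* had the highest Pearson correlation (0.934, Spearman 0.888), at a mean level of only 1.86 CPM. *Tanc2* (0.933, Spearman 0.926), *Lrp6* (0.929, Spearman 0.879) and *Map4k5* (0.928, Spearman 0.882) followed. *P4ha1* stood at rank 5 (0.926, Spearman 0.935) and so the nearest of the HIF pathway genes. *Egln3* stood at rank 94 (0.850), *Bnip3* at 167 (0.813) and *Kdm3a* at 281 (0.779). *Ndrg1* stood at rank 882 (0.653), *Vegfa* at 1062 (0.625) and *Egln1* at 1306 (0.590). Farthest were *Hif1a* at rank 3376 (0.308) and *Adm* at 4015 (0.229).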

How the data were processed

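Stranded poly(A) libraries were sequenced from 4 groups of 4 cultures. The authors trimmed reads with Cutadapt 1.18, aligned them to mm10 with STAR 2.7.0f and quantified GENCODE genes with RSEM 1.3.1 (bcl2fastq 2.20 and Picard 2.18.26 are also named in the submitters' processing notes). The deposited values are expected counts of reads on each gene and were not normalized. Reads that fit several genes are shared among them, so that members with close relatives can be affected, and 5.41% of the values were not whole. All 55450 identifiers were found in GENCODE M21, from which positions and exon lengths were taken. Column totals ran from 22346049 to 35512004 counts, and their number limits the precision most for *Ankrd37* (at least 281 counts per library).

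Rounded counts were put into edgeR 4.0.16 (R 4.3.3). Genes averaging 1 CPM or more were kept (11675), and after TMM scaling the quasi-likelihood test was run with treatment and replicate letter as terms over all 16 libraries, with Benjamini-Hochberg adjustment over all genes and a threshold of 0.05. Log2 CPM used a prior count of 0.5. The script was tested on simulated counts. Letters come from the labels, and the batch that the study removed is not named in the sources used here. All 24 correlations between deviations of same-letter libraries were above 0.1 (0.144 to 0.469), so the letters were taken to pair the libraries. The median of 72 other pairs was −0.114. This median is no independent comparison. Deviations were taken from group means, which pushes other-letter correlations below 0 where same-letter ones lie above it.

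The 10 genes were chosen with earlier results of these data known. The lists were drawn up from general knowledge and not picked for how genes moved here, but with those results also known. The calls of both are descriptive, and no test over a list was made. The genes named are the 10, list genes that passed for itaconate, up to 4 rises and 4 falls of a list for lipid, and the 5 genes most like *Ankrd37*. Alternatives were no replicate block, RLE scaling, no filter, filterByExpr, DESeq2 1.42.0, only the 8 libraries of a comparison and each library left out. Leaving out each whole letter was added after seeing the data. Not tested for low values were 18 list genes, among them *Hif3a*, *Car9*, *Slc2a3* and *Epo*. *Aldoa* has 2 rows, of which the higher was used. Promoter sequences are those of RefSeq (GRCm38.p6).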

Additional observations from a re-analysis of the deposited data

How the results depend on the processing

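There were 26 alternative settings. With no replicate block the genes called were 23 for itaconate alone (573 with it), 9 for itaconate with lipid (301) and 0 for the interaction (1), the members called for itaconate were 0 and 0 (1 and 1), and the list genes were 0 for itaconate alone, 0 for itaconate with lipid and 30 for lipid with itaconate (46). With only the 8 libraries of a comparison there were 1859 genes, 6 members and 31 list genes for itaconate alone, but 14, 0 and 0 for itaconate with lipid. With no filter the counts were 1091, 4 and 16 for itaconate alone, 725, 3 and 19 for itaconate with lipid, 8 members for lipid with itaconate, and 231, 1 and 2 for the interaction. DESeq2 gave 2 members for itaconate alone, 509 genes and 10 list genes for itaconate with lipid and 36 genes for the interaction, for which RLE scaling and filterByExpr gave 2 each. The cause of these shifts was not tested.

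Leaving out 1 library or letter gave 71 to 1051 genes, 0 to 2 members and 0 to 12 list genes for itaconate alone, 35 to 891, 0 to 3 and 0 to 17 for itaconate with lipid, 4079 to 6007, 4 to 6 and 30 to 43 for lipid alone, 3916 to 5568, 3 to 7 and 31 to 48 for lipid with itaconate, and 0 to 8, 0 to 0 and 0 to 0 for the interaction. For itaconate alone the fewest genes were called without letter D, and for itaconate with lipid the most were called without lipid + itaconate replicate C. The falls of *Hif1a*, *Ndrg1* and *Kdm3a* with lipid kept their call in all 26 alternatives in both lipid comparisons, with highest adjusted p-values in edgeR or DESeq2 of 0.000336, 0.0199 and 0.0347. *Ankrd37* was higher with itaconate in all 26, by 0.57 to 0.70 on the log2 scale without lipid and by 0.09 to 0.56 with it.

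The sign turned only in log2 differences without a call, which ran over these settings as follows. For itaconate alone *Adm* ran from −0.050 to 0.25. For itaconate with lipid *Egln1* ran from −0.047 to 0.17, *Egln3* from −0.075 to 0.34, *Vegfa* from −0.11 to 0.11, *P4ha1* from −0.015 to 0.22 and *Adm* from −0.51 to 0.0009. For lipid alone *Egln3* ran from −0.26 to 0.016, *P4ha1* from −0.11 to 0.031 and *Ankrd37* from −0.27 to 0.12. For the interaction *Hif1a* ran from −0.042 to 0.017, *Egln1* from −0.18 to 0.13, *Egln3* from −0.30 to 0.079, *Kdm3a* from −0.16 to 0.059 and *Bnip3* from −0.13 to 0.16, with −0.0042 for *Bnip3* with no replicate block.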
